A study of Homo sapiens with 16 samples.

Results

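The genes of the small MAF transcription factors and of their main partners were examined for MAFG and MITF occupancy in WM164 cells, a human melanoma line. The 10 genes were MAFG, MAFF, MAFK, NFE2L1, NFE2L2, NFE2L3, NFE2, BACH1, BACH2 and KEAP1, out of 20037 protein-coding genes, and they were chosen by name and not by any measured value. For each gene, peaks were collected over the gene body with 10 kb on either side (GRCh38). Occupancy had been measured by CUT&RUN, in which an antibody directs a nuclease to its target in nuclei so that short DNA fragments around bound sites are released and sequenced. One set of libraries came from WM164 cells overexpressing GFP, the control, and the other from WM164 cells overexpressing MAFG, here called GFP cells and MAFG cells. Each line had 3 libraries with anti-MAFG, 3 with anti-MITF and 1 with anti-H3K4me3, a histone mark of active promoters. The 2 IgG control samples were not analysed here. Peak lists cannot show the level of MAFG itself. The labels do not say which promoter drives the transgenes, whether a line is 1 clone, or whether replicates are separate cultures, so p-values measure only the spread between these libraries, which may be technical.

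Small MAF proteins (MAFF, MAFG and MAFK) are basic leucine zipper factors that have no activation domain of their own. They bind DNA as dimers with each other, or with cap'n'collar proteins (NFE2, NFE2L1, NFE2L2, NFE2L3), which activate transcription, or with BACH1 and BACH2, which repress it. The dimers recognise the antioxidant response element of stress-defence genes, and KEAP1 directs NFE2L2, also called NRF2, to degradation. MITF, the lineage factor of melanocytes and melanoma, binds E-box sequences. The question addressed was whether anti-MAFG or anti-MITF peaks lie at the genes of this network itself, which bears on auto- and cross-regulation. Peaks locate protein on DNA and do not measure transcription.

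The promoters at which the results turn are shown first, from the RefSeq promoter table of assembly GRCh38.p14, which lists starts for 8 of the 10 genes. Each line gives the 250 bases before a listed start and the first 20 from it, 5′ to 3′ on the gene's own strand, with matched motifs in capitals. Positions count from the start base as 0. The motifs searched on both strands were TGACNNNGC (the antioxidant response element core), TGAGTCA (the AP-1 core, also bound by small MAF dimers), TGCTGA (part of the extended small MAF site) and the E-boxes CACGTG and CATGTG. MAFG is shown for its peaks with anti-MITF and its lack of any with anti-MAFG (chr17:81927716-81927985, minus strand). Its capitals mark CACGTG at -16 and CATGTG at -1.
MAFG: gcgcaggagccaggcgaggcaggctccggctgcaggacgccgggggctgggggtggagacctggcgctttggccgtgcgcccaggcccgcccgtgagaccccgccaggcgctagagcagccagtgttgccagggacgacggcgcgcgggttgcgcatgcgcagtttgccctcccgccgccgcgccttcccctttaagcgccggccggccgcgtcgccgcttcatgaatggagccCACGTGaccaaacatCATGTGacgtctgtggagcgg
The promoters of both MAFF starts are shown because MAFF alone had anti-MITF peaks near its starts in every library (chr22:38201744-38202013 and chr22:38202770-38203039, plus strand). At the first start the capitals mark CACGTG at -196 and the antioxidant response element core, read on the opposite strand as GCGGGGTCA, at -122. At the second they mark CACGTG at -81.
MAFF first start: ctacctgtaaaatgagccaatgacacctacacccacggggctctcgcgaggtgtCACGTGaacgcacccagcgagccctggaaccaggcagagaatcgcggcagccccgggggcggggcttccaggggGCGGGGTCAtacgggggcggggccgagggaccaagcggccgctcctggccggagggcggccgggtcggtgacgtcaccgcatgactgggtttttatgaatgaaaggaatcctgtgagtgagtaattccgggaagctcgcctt
MAFF second start: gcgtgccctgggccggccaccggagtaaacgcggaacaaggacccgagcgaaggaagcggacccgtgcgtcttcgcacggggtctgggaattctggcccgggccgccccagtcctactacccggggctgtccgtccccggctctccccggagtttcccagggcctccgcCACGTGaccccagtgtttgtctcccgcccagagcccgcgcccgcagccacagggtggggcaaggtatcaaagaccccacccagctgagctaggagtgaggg
NFE2L1 (chr17:48048109-48048378, plus strand) is shown for its peaks with both antibodies; none of the motifs was found in these letters. BACH1 (chr21:29298672-29298941, plus strand) holds TGAGTCA at -48.
NFE2L1: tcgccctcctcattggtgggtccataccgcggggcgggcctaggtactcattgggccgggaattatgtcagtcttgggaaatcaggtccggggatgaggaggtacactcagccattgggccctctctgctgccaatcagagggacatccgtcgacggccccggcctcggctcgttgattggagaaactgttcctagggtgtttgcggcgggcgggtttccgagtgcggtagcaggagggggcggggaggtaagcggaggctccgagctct
BACH1: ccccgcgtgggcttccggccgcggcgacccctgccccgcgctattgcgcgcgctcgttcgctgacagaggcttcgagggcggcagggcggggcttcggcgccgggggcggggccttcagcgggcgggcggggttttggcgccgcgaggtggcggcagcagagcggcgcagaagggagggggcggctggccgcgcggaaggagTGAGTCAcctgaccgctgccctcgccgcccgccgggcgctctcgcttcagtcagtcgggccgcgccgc
KEAP1 (chr19:10502752-10503021, minus strand) is shown for its 2 antioxidant response element cores, TGACACGGC at -54 and, from the opposite strand, GCTTAGTCA at -31.
KEAP1: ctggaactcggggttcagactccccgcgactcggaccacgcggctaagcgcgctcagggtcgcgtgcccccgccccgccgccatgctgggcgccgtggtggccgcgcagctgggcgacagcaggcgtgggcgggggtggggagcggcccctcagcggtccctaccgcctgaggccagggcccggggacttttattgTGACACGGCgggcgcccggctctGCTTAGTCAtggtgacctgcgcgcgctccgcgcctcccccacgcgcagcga
Such short motifs are common. Of 22199 promoters of protein-coding genes in the table, 300 bases each, 13.8% held TGACNNNGC, 4.01% TGAGTCA, 15.4% TGCTGA, 8.93% CATGTG and 8.34% the E-box CACGTG. Both E-boxes occurred together, as in MAFG, in 0.77%.

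Peak lists differed in length between the lines. GFP-cell libraries of anti-MAFG and anti-MITF held 14879 to 26221 peaks and MAFG-cell libraries held 1836 to 2818. The lists give no read totals. Fragment counts recovered from the authors' fold enrichments and p-values put the mean coverage at 0.389 to 0.760 fragments per base in GFP cells and 0.389 to 0.551 in MAFG cells, so the ranges overlapped. Pileups of the 6 factor libraries from MAFG cells had been scaled by 0.452 to 0.637 in calling, against 0.969 to 1 in GFP cells. The smallest summit called had 8 to 12 fragments in those libraries and 5 to 7 in the GFP-cell ones. For H3K4me3 the scale was 0.350 in MAFG cells and 1 in GFP cells, and the smallest summit called had 12 and 5 fragments. Scaling, list length and cell line changed together, and their parts in a missing peak cannot be told apart. H3K4me3 peaks were present at all 6 melanocyte genes used as markers (MITF, SOX10, PMEL, MLANA, TYR and DCT) in both lines and at 0 of 5 markers of other cell types.

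A gene was called where at least 2 of the 3 libraries of a group had a peak in its window. With anti-MAFG, 6 of the 10 genes were called in the GFP line, beside 39.7% of all protein-coding genes: NFE2L1, NFE2L2, NFE2L3, NFE2, BACH1 and BACH2. In MAFG cells 2 were called, NFE2L3 and BACH2, beside 5.31% of all genes. With anti-MITF, 7 were called in GFP cells, beside 49.1%: MAFG, MAFF, NFE2L1, NFE2L2, NFE2, BACH1 and BACH2. MAFG and MAFF were the 2 called in MAFG cells, beside 8.46%. Of the small MAF genes, none was called with anti-MAFG in either line, and MAFK had no peak in any of the 12 factor libraries. Genes with no anti-MAFG peak in 6 libraries are common (47.3% of all genes), as are genes with no anti-MITF peak (40.3%). All 10 windows held H3K4me3 in both lines, beside 65.1% of all genes in GFP cells, 60.8% in MAFG cells and 60.7% in both.

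**Figure D1:**
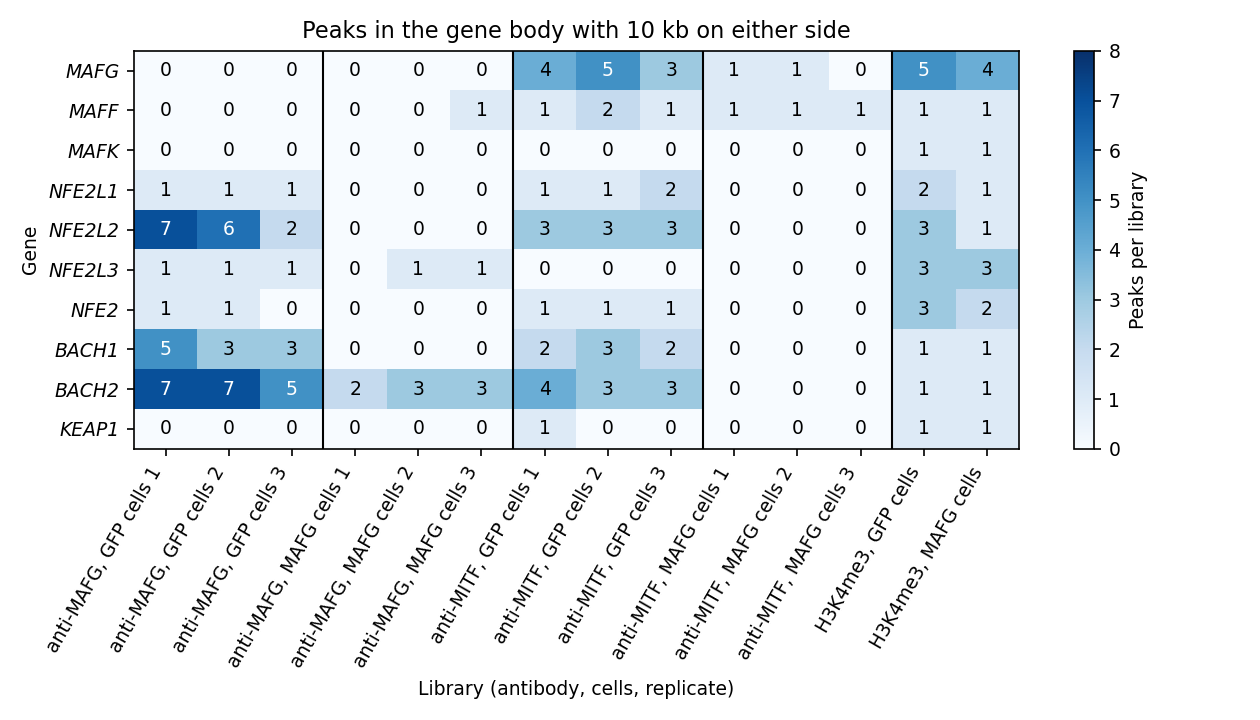
Number of peaks per library (columns; antibody, cells, replicate) in the window of each gene (rows), the gene body with 10 kb on either side. The left block, anti-MAFG in GFP cells, holds peaks from NFE2L1 to BACH2 (except NFE2 in replicate 3) and is empty for MAFG, MAFF, MAFK and KEAP1; in MAFG cells BACH2 keeps 2 to 3 peaks per library with anti-MAFG and MAFF 1 with anti-MITF.

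More of the genes were called in GFP cells alone than in MAFG cells alone. With anti-MAFG, 4 genes were called in GFP cells and had no peak in any MAFG-cell library (NFE2L1, NFE2L2, NFE2 and BACH1), beside 31.4% of all genes. With anti-MITF there were 5 (NFE2L1, NFE2L2, NFE2, BACH1 and BACH2), beside 35.1%. No gene of the 10 was called in MAFG cells with no peak in GFP cells, beside 0.215% with anti-MAFG and 0.02% with anti-MITF. The smallest anti-MAFG summits called in MAFG-cell libraries held 8 to 11 fragments. Of 53 anti-MAFG peaks of GFP cells in these windows, 3 had summits under 8 fragments and 22 under 11. Of 50 anti-MITF peaks, 6 were under 9 fragments and 22 under 12, the range of the smallest anti-MITF summits in MAFG cells. A call also depends on local background and scale, so these values do not show which of the larger peaks would be called in MAFG cells. Lists cut to equal length by p-value, 1836 peaks for anti-MAFG and 2116 for anti-MITF, changed these counts. Anti-MAFG then called NFE2L1 and BACH2 in the GFP line (2 of the 10, beside 5.3% of all genes) and BACH2 in the MAFG line (1, beside 4.78%). Anti-MITF called NFE2L1, NFE2L2 and BACH1 in the GFP line (3, beside 8.15%) and MAFG and MAFF in the MAFG line (2, beside 7.7%). With these lists 1 gene was called by anti-MAFG in GFP cells alone (beside 2.76%) and 0 in MAFG cells alone (beside 2.23%). With anti-MITF 3 were in GFP cells alone (beside 2.76%) and 2, MAFG and MAFF, in MAFG cells alone (beside 2.22%).

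MAFG, the overexpressed factor, had no anti-MAFG peak over its own gene in any of 6 libraries (chr17:81918270-81931244, minus strand). Anti-MITF peaks lay within 1000 bp of its listed start in 3 of 3 GFP-cell libraries, in a region at chr17:81926656-81928601. Only the peak of replicate 3 covered the start itself. The authors' fold enrichment at the main summit there was 6.95, 5.86 and 5.20 in replicates 1 to 3, from 20, 17 and 16 fragments. These summits lay upstream of the E-boxes printed above, at -273, -492 and -312 from the start, and each E-box was covered in 1 of the 3 libraries. None of the 3 MAFG-cell libraries had a peak in that region. The anti-MITF call of MAFG in MAFG cells rested on neighbouring genes: 1 peak in PCYT2 (fold 6.02, replicate 1) and 1 in SIRT7 (fold 5.47, replicate 2). Leaving out either library ended that call, as did a window with 5 kb or no flank. Over the whole window anti-MITF peaks numbered 4, 5 and 3 in GFP-cell libraries and 1, 1 and 0 in those of MAFG cells, without overlap. Most of the GFP-cell peaks also lay in neighbouring genes (PCYT2, SIRT7 and PYCR1). The difference (MAFG minus GFP cells) was -3.33 peaks per library, and -1.33 over the gene body with no flank. With lists of equal length it turned to 0.667. H3K4me3 at the start ranked within the best 8.69% of the GFP-cell list (234 summit fragments) and 2.03% of the MAFG-cell list (286).

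MAFF, a small MAF gene induced by stress in many cell types, had anti-MITF peaks at its starts in both lines (chr22:38201994-38216511, plus strand). All 6 anti-MITF libraries had a peak in a region at chr22:38201275-38203576 that spans both starts, beside 4.99% of genes with an anti-MITF peak in all 6 libraries and 3.84% of 29820 merged regions. Positions within it differed. In GFP cells the peaks lay mainly over the second start. Their folds were 3.97 (replicate 1), 4.95 and 6.64 (both in replicate 2) and 3.13 (replicate 3). They ranked 19210 of 19828, 14973 and 7972 of 20117, and 20063 of 20102. Those of replicates 1 and 3 were thus among the weakest of their lists. All 3 libraries covered the CACGTG at -81 of the second start. MAFG-cell peaks had folds of 9.05, 7.99 and 5.71, ranks 407 of 2491, 589 of 2116 and 1778 of 2495. They lay over the first start or upstream of it. The peaks of 2 of these 3 libraries covered the CACGTG at -196 and the response element core at -122, and none covered the second CACGTG. Replicate 3 of anti-MAFG in MAFG cells gave the only anti-MAFG peak at MAFF, with fold 7.24, rank 1376 of 2818 and a summit at -228 from the first start. That peak covered both motifs of the first start.

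Summit fragments over the library's mean coverage were used to set the MAFF region in both lines on 1 scale. The highest summit of the region was taken in each library, and these summits lay at different sites. In replicate 2 of the GFP cells it was that of a peak at -474 from the first start. The ratio therefore compares the merged region and not 1 binding site. GFP-cell libraries had 28.3, 28.5 and 24.8 times the mean and MAFG-cell libraries 43.7, 36.3 and 24.6. The groups overlapped, and their ratio of 1.28 did not differ from 1 beyond the replicate spread (27.2 ± 2.11 against 34.8 ± 9.63, SD, n = 3 each; two-sided exact permutation test, p = 0.4, and 0.796 after Benjamini-Hochberg adjustment over 1146 regions). Of the 1146 regions with an anti-MITF peak in all 6 libraries, 15.5% had a ratio at least as high, and the median was 1.07.

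MAFK (chr7:1530702-1543043) carried H3K4me3 at one end of the gene in both lines, with 37 (GFP) and 51 (MAFG) summit fragments. None of the 12 factor lists had a peak in its window.

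**Figure D2:**
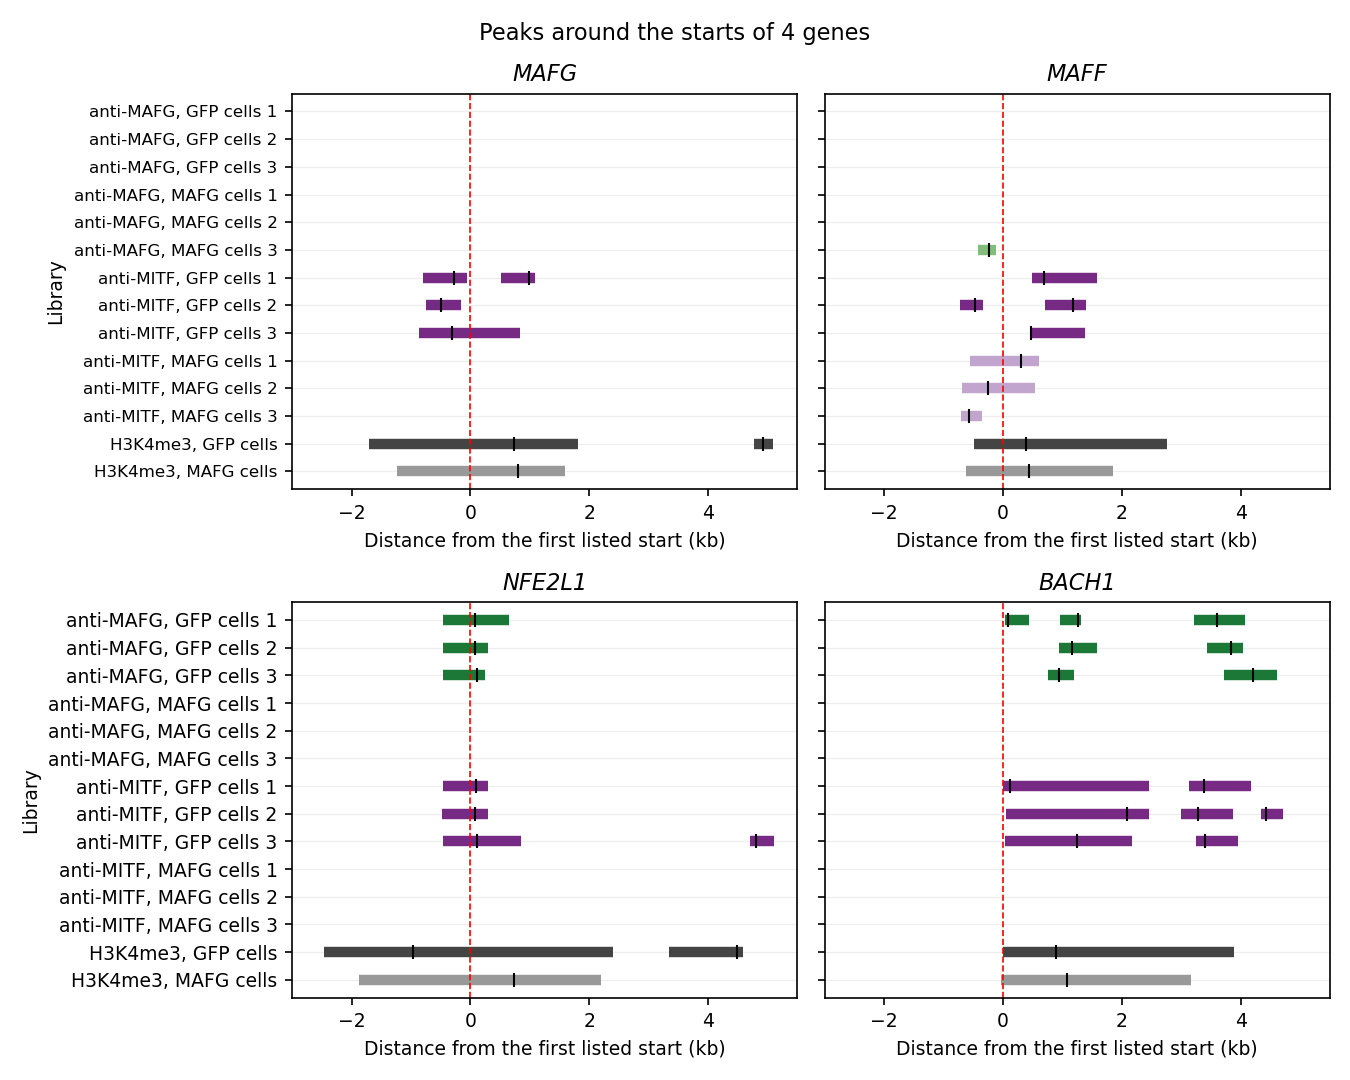
Peaks around the first listed starts of MAFG, MAFF, NFE2L1 and BACH1 (x axis, distance in kb in the direction of transcription; y axis, library); bars span each peak, ticks mark summits and the dashed line marks the start. MAFF has anti-MITF bars in all 6 libraries, shifted upstream in MAFG cells, whereas NFE2L1 and BACH1 have bars from both antibodies in GFP cells and only H3K4me3 in MAFG cells.

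Among the cap'n'collar activators, NFE2L1, whose protein drives proteasome genes, had narrowly placed summits at its start (chr17:48048359-48061545, plus strand). All 6 GFP-cell factor libraries had a peak in a region at chr17:48047887-48049213, with summits 83 to 108 bases after the start. The region also overlapped the neighbouring gene COPZ2 (chr17:48026167-48048053), so its peaks cannot be assigned to NFE2L1 alone. Anti-MAFG folds were 12.3, 10.9 and 5.21, ranks 1905 of 26221, 1715 of 23409 and 9537 of 14879. With anti-MITF the folds were 15.9, 10.9 and 10.8. These were among the stronger peaks of their lists except in replicate 3 of anti-MAFG. None of the 6 MAFG-cell libraries had a peak there. The GFP-cell summits held 13 to 37 fragments, and the smallest summits called in MAFG-cell factor libraries held 8 to 12. The number needed at a given site also depends on its local background and the scale, so these values do not show whether such a summit would be called there. The first promoter, printed above, held none of the motifs, and the second start (48048781) had TGCTGA at -239, covered by all 6 GFP-cell peaks. H3K4me3 at the start gave 132 (GFP) and 155 (MAFG) summit fragments.

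NFE2L2, the main activator of the antioxidant response, had up to 7 anti-MAFG peaks per library in its window, mostly within the gene (chr2:177230303-177264727, minus strand). The highest anti-MITF folds fell 25 kb inside the gene, at chr2:177239164-177240702, and were 11.93, 14.01 and 14.98, within the best 8.01% of each list. Anti-MAFG folds in that region were 9.68, 5.43 and 5.70. A second region 22 kb inside, at chr2:177241374-177243159, had anti-MAFG peaks in 2 of 3 and anti-MITF peaks in 3 of 3 GFP-cell libraries. The start region itself was marked by both antibodies in 3 of 3 libraries, with anti-MAFG folds of 4.07, 5.17 and 4.34 and anti-MITF folds of 6.76, 5.58 and 6.30. These anti-MAFG peaks were in the weaker part of their lists, at ranks 24576 of 26221, 16674 of 23409 and 13092 of 14879. The anti-MITF peaks ranked 8711 of 19828, 12008 of 20117 and 9550 of 20102. Anti-MAFG peaks over the window numbered 7, 6 and 2, and anti-MITF peaks 3, 3 and 3. MAFG-cell libraries had none with either antibody, and the promoters of both listed starts held none of the motifs. Both internal regions carried H3K4me3 in GFP cells, with 13 and 15 summit fragments, and no such peak in MAFG cells, where no summit under 12 fragments was called in the scaled H3K4me3 library. A call at a given site also depends on its local background. At the start H3K4me3 was present in both lines, with 151 and 167 fragments.

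NFE2L3 (chr7:26152198-26187137, plus strand) was the only cap'n'collar gene with anti-MAFG peaks in MAFG cells and the only one with no anti-MITF peak in any library. A region 4 kb after the start, at chr7:26155697-26156945, had anti-MAFG peaks in 3 of 3 GFP-cell libraries (folds 6.14, 4.59 and 4.47) and in replicate 3 of the MAFG cells (fold 5.56). The other MAFG-cell peak, in replicate 2, lay 30 kb after the start with fold 6.80. The call in MAFG cells therefore joined different sites of 2 libraries and ended when either was left out. H3K4me3 in MAFG cells had a peak of 19 summit fragments over the 4 kb site, and the GFP-cell H3K4me3 list had none there.

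NFE2, the cap'n'collar factor of blood cell precursors, had a single shared site inside the gene (chr12:54294165-54295084; gene chr12:54292111-54301015). Anti-MAFG peaks were present in replicates 1 and 2 of the GFP cells, with folds 5.83 and 5.30. Anti-MITF peaks were present in 3 of 3, with folds 6.48, 6.51 and 7.62. Summits held 8 to 11 fragments, and the smallest summits called in MAFG-cell factor libraries held 8 to 12. No MAFG-cell library had a peak there. An H3K4me3 peak of 10 fragments overlapped the site in GFP cells, under the 12 of the smallest H3K4me3 summit called in MAFG cells. Other H3K4me3 in the window lay at or near HNRNPA1.

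BACH1, a haem-sensing repressor of antioxidant genes, was marked by both antibodies in GFP cells over its first 5 kb (chr21:29298922-29361894, plus strand). In the start region, chr21:29298926-29301381, anti-MITF folds were 8.372, 11.99 and 12.13, and the highest anti-MAFG folds were 5.16, 5.91 and 6.25. A second region at chr21:29301914-29303636 again had both antibodies in 3 of 3 libraries. Another, 25 kb after the start at chr21:29323882-29324474, had anti-MAFG in 3 of 3 (folds 6.89, 4.74 and 5.70) and anti-MITF in 0 of 3. An anti-MAFG peak 50 kb after the start was called in replicate 1 alone, with fold 11.7 and rank 2298 of 26221. The GFP-cell peaks began after the TGAGTCA at -48, which no factor peak covered. The second listed start (29299375) had TGCTGA, read on the opposite strand as TCAGCA, at -28. Anti-MAFG peaks covered it in 1 GFP-cell library and anti-MITF peaks in 3. MAFG-cell libraries had no peak in the window with either antibody, and H3K4me3 at the start was present in both lines with 89 and 131 summit fragments.

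BACH2, the repressor better known from B cells, carried the anti-MAFG peaks of highest fold among the 10 genes, and these were called in both lines (chr6:89926528-90296843, minus strand). It is also the longest of the 10 genes, at 370316 bp: of the 560 genes at least that long, 85.4% were called with anti-MAFG in the GFP line and 28.2% in the MAFG line, and 78.6% and 23.9% with anti-MITF. An anti-MAFG peak in all 6 libraries was found for 19.1% of these long genes and for 2.85% of all genes. A region 11 kb after the start, at chr6:90283989-90286999, had a peak in 6 of 6 anti-MAFG libraries. Folds were 21.8, 17.1 and 10.9 in GFP cells, ranks 74 of 26221, 139 of 23409 and 566 of 14879. In MAFG cells they were 14.8, 14.8 and 11.6, ranks 85 of 1836, 62 of 1849 and 306 of 2818. Merged regions with an anti-MAFG peak in all 6 libraries made up 1.79% of 34223. With anti-MITF the region was called in 1 of 6 libraries, replicate 1 of the GFP cells, with fold 5.76.

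A second BACH2 region, 69 kb after the start at chr6:90226377-90227866, was also called in 6 of 6 anti-MAFG libraries, with folds of 10.7, 6.14 and 6.12 in GFP-cell libraries and 8.24, 5.91 and 5.66 in those of MAFG cells. The last, 78 kb after the start at chr6:90217736-90219250, was called in 3 of 3 GFP-cell libraries (folds 19.87, 14.14 and 8.004) and in 2 of 3 MAFG-cell libraries (4.86 and 6.10). These MAFG-cell peaks, chr6:90217926-90218433 in replicate 2 and chr6:90218732-90219162 in replicate 3, did not overlap each other. They ranked 1678 of 1849 and 1961 of 2818. Anti-MITF peaks occurred at both in GFP cells, in 2 of 3 and 3 of 3 libraries (folds 9.299, 8.403 and 10.21 at the 78 kb region), and in no MAFG-cell library. Anti-MAFG peaks at 223, 228 and 356 kb occurred only in GFP-cell libraries. None of the BACH2 factor regions overlapped H3K4me3. Whether these regions fall in introns or exons was not examined, since no exon annotation was used here.

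**Figure D3:**
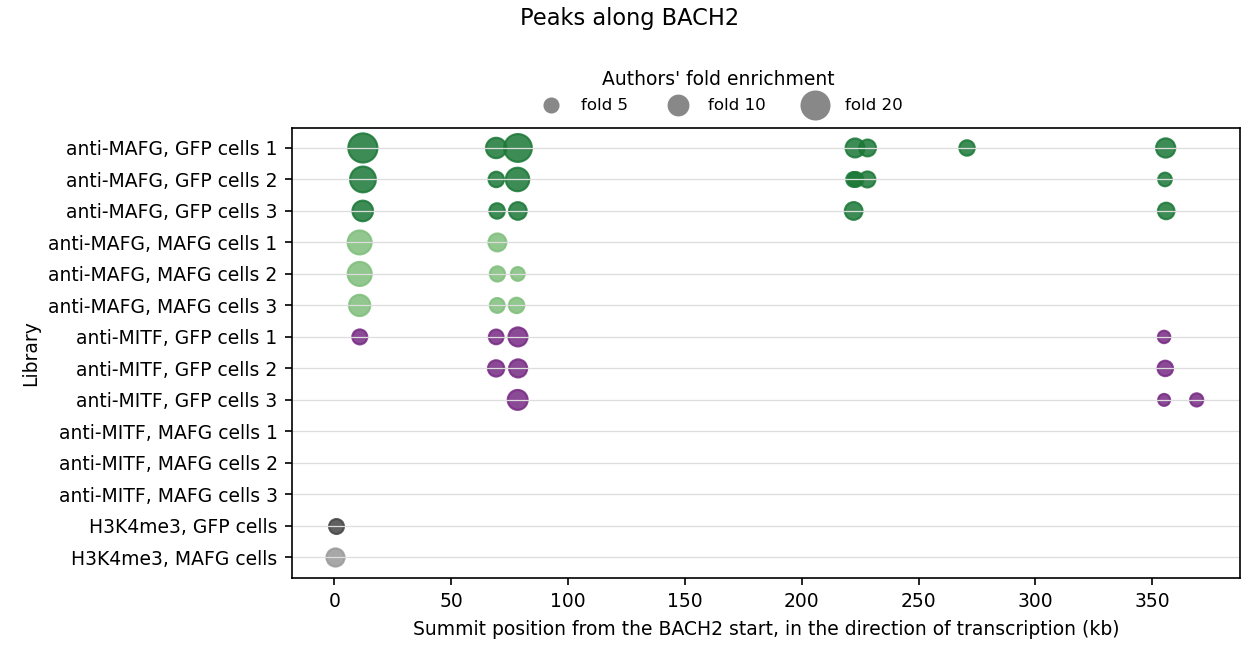
Peak summits along BACH2 (x axis, kb from the listed start in the direction of transcription) for each library (y axis), with point area growing with the authors' fold enrichment. Anti-MAFG points stand near 11, 69 and 78 kb in both lines, whereas anti-MITF points are confined to GFP cells.

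Summit fragments over the library mean gave the 11 kb region 57.9, 53.6 and 40.9 in GFP-cell libraries and 115, 108 and 111 in those of MAFG cells, without overlap. The means were 50.8 ± 8.84 and 111 ± 3.33 (SD, n = 3 each), a ratio of 2.19 (two-sided exact permutation test, p = 0.1, the smallest that 3 libraries against 3 allow; 0.141 after Benjamini-Hochberg adjustment over 612 regions). This was not particular to BACH2. Of the 612 regions called with anti-MAFG in all 6 libraries, 69.4% were higher in MAFG cells without overlap, 37.6% had a ratio at least as high, and the median ratio was 1.87. A region entered this set only when called in every library, and the smallest summit called was larger in MAFG cells. Undivided fragments were 44, 28 and 18 against 59, 45 and 43, a ratio of 1.63 with overlapping groups (exact permutation test, p = 0.2). At the 69 kb region the values were 34.6 ± 7.42 and 51.5 ± 10.7 (SD, n = 3 each), a ratio of 1.49 that was within the replicate spread (exact permutation test, p = 0.2) and was reached by 69.1% of the regions.

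Within the 11 kb region the position of the summit also differed between the lines, a comparison chosen after the values were seen. GFP-cell summits lay 12165, 12192 and 12095 bp after the start and MAFG-cell summits 10771, 10795 and 10760 bp, a difference of 1375 bp (12151 ± 50.1 against 10775 ± 17.9, SD, n = 3 each; exact permutation test, p = 0.1). The spread within each line was far smaller than the distance between them. The peaks of all 6 libraries spanned both positions. The only anti-MITF summit of the region, in replicate 1 of the GFP cells at 10835 bp, lay nearer to the MAFG-cell position.

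**Figure D4:**
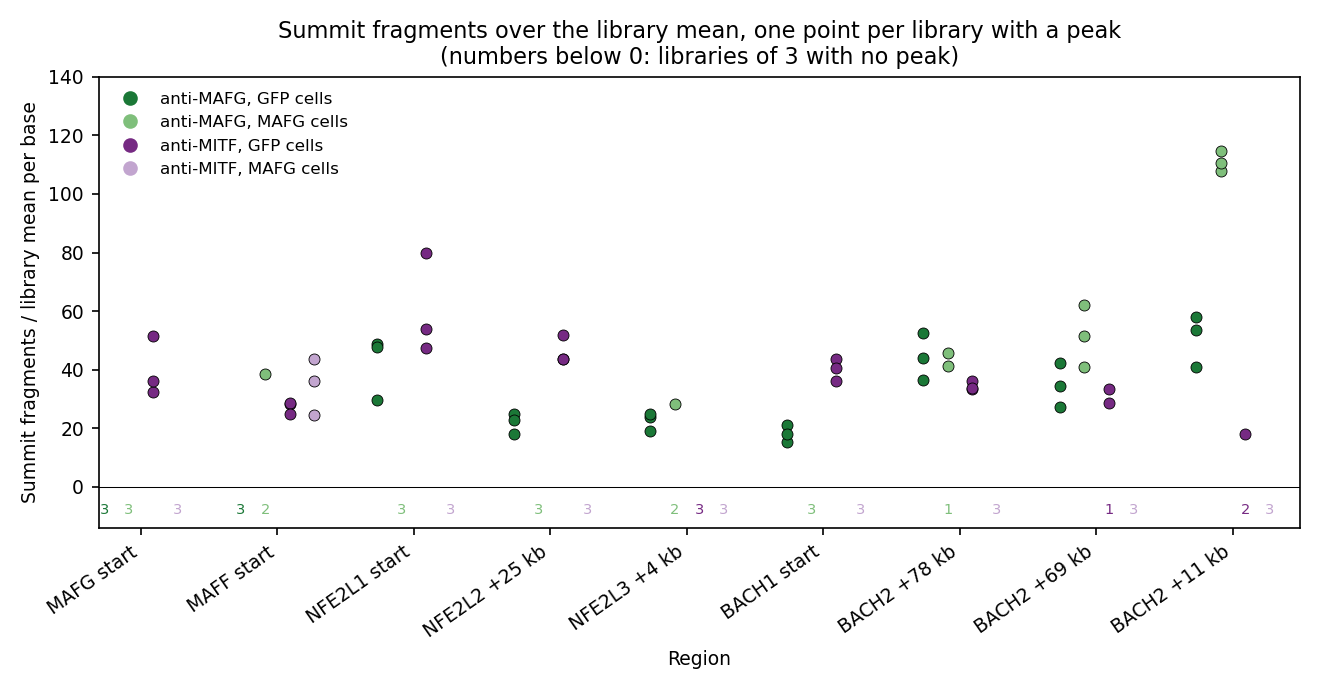
Fragments at the summit divided by the mean fragments per base of the library (y axis, linear) in 9 regions (x axis); each point is 1 library with a peak and the numbers below 0 count libraries of 3 with no peak. At BACH2 +11 kb the MAFG-cell anti-MAFG points lie between 108 and 115, above the GFP-cell points of 40.9 to 57.9, whereas at the MAFF start the anti-MITF points of the lines overlap.

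KEAP1, the sensor that holds NFE2L2 in check, had no anti-MAFG peak in any library (chr19:10486125-10503356, minus strand). One anti-MITF peak was found, in replicate 1 of the GFP cells, at chr19:10485681-10486808 across the far end of the gene from its starts (fold 7.69). Neither response element core of the promoter printed above was covered by a factor peak. H3K4me3 gave 106 (GFP) and 127 (MAFG) summit fragments within 1000 bp of a start. The GFP-cell peak covered both listed starts, and the MAFG-cell peak, chr19:10501636-10502703, lay inside the gene and covered neither.

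Across the 10 genes, peaks of the 12 factor libraries merged into 32 regions. Of 16 regions with anti-MAFG in at least 2 of 3 GFP-cell libraries, 10 also had anti-MITF in at least 2 of 3, beside 54.3% of such regions genome-wide. Regions with both antibodies were thus common outside these genes as well. H3K4me3 of GFP cells overlapped 7 of the 16 anti-MAFG regions, beside 26.7% genome-wide, and 11 of the 14 anti-MITF regions, beside 42.7%. The genome-wide shares in this paragraph cover regions at any distance from genes, while the regions counted here lie in gene windows. The bases are therefore unlike, and a higher share here cannot be read as a trait of these genes. The NFE2L3 region, the BACH1 region at 25 kb and all anti-MAFG regions of BACH2 lay outside the mark, while the start regions of NFE2L1, NFE2L2 and BACH1 carried it. Of the 16 anti-MAFG regions 3 were also called in MAFG cells, all in BACH2, beside 6.96%. At the BACH2 region 78 kb after the start, that call joined peaks of 2 libraries that did not overlap each other. Of the 14 anti-MITF regions 1 was, that of MAFF, beside 11.3%. The MAFF region joined peaks that lay mostly at different positions in GFP and MAFG cells.

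The number of peaks per library was tested between the lines for each gene. With anti-MAFG the lines did not overlap for 4 genes, all with fewer peaks in MAFG cells, beside 23.2% of all genes (none had more, beside 0.125%): NFE2L1 (1 ± 0 against 0), NFE2L2 (5 ± 2.65 against 0), BACH1 (3.67 ± 1.15 against 0) and BACH2 (6.33 ± 1.15 against 2.67 ± 0.577; SD, n = 3 each). Each had a two-sided exact permutation p of 0.1, the smallest possible, and 0.429 after Benjamini-Hochberg adjustment over 20037 genes. With anti-MITF there were 6 with fewer, beside 31.7%, and none with more, beside 0.00499%: MAFG (4 ± 1 against 0.667 ± 0.577, mostly peaks in neighbouring genes), NFE2L1, NFE2L2, NFE2, BACH1 and BACH2 (3.33 ± 0.577 against 0). Their exact permutation p was also 0.1, and 0.315 when adjusted. No gene of the 10 passed an adjusted threshold of 0.05, which this design cannot reach. With lists of equal length, none of the 4 anti-MAFG genes stayed without overlap (0 of the 10 fewer, beside 1.38% of all genes, and 0 more, beside 1.52%), and the BACH2 difference turned from -3.67 to 0.333 peaks per library. With anti-MITF, NFE2L1 and NFE2L2 stayed without overlap (2 of the 6, beside 1.32%), and MAFF, not among the 6, had more peaks in MAFG cells without overlap (1 gene, beside 0.953%).

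H3K4me3 could be set between the lines within 1000 bp of the starts of the 8 genes with a listed start, from 1 library per line and with no test. Summit fragments over the library mean gave MAFG-cell to GFP-cell ratios of 0.817 (NFE2L3) to 1.203 (BACH1) in 7 of them, around the median of 0.924 over 8895 genes. BACH2 had a ratio of 2.76, with 8 fragments in the GFP line and 27 in the MAFG line (95% counting interval of the ratio 1.22 to 7.02, which covers counting error only). Since no MAFG-cell summit under 12 fragments was called, a start with 8 in GFP cells could enter only with a ratio of at least 1.23. BACH2 was picked out after its value was seen, and both of its peaks were weak for H3K4me3. The authors' folds gave another picture for MAFF, at 32.9 (GFP) and 57.9 (MAFG), although its summit fragments were 209 and 219 and their ratio over the mean was 0.856; the recovered local background there was 5.38 and 0.341 scaled fragments, in the same order.

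Other genes of the pathway were read from lists chosen by function. Of 10 regulators of the partner proteins, 6 were called by anti-MAFG in the GFP line and 1 in the MAFG line, SQSTM1, whose product binds KEAP1 (2 of 3 and 3 of 3 libraries). With anti-MITF 8 and 2 were called. The shares over all genes are 39.7% and 5.31% with anti-MAFG and 49.1% and 8.46% with anti-MITF for this and the next lists. Of the 4 large MAF genes, 3 were called by anti-MAFG in the GFP line and 0 in the MAFG line, while with anti-MITF 3 and 2 were called. Among 10 genes with known antioxidant response elements, anti-MAFG called 6 in the GFP line and 7 in the MAFG line. GCLC and GCLM (glutathione synthesis), NQO1, HMOX1 (haem breakdown), SLC7A11 (cystine uptake) and TXNRD1 were called in both lines, and FTH1 (ferritin heavy chain) in 3 of 3 MAFG-cell and 0 of 3 GFP-cell libraries. With anti-MITF 7 of these 10 were called in the GFP line and 2 in the MAFG line. The difference between the lists was not tested.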

How the data were processed

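CUT&RUN peak lists of 14 libraries were used (12 with anti-MAFG or anti-MITF, 2 with anti-H3K4me3), each holding the peaks of 1 library. The submitters' processing notes name cutadapt 1.8.1, Bowtie2 2.4.1, MACS2 2.1.1.20160309, ChIPseeker 1.32.1 and GRCh38, with no role or order, and the control used in calling is not given in the sources used here. In the deposited lists, fold enrichment is a linear ratio, p and q are −log10 values with q of at least 2 on that scale, and a score column repeats the q-value. The 10 genes, the motifs and the gene lists were chosen with earlier results of these data known.

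Windows were the RefSeq gene body (GRCh38.p14) with 10 kb on either side, and an overlap of 1 bp counted. As a check of the build, 63.8% and 71.6% of H3K4me3 summits lay within 1000 bp of a RefSeq start in GFP and MAFG cells, against 2.96% and 2.94% after a shift of the summits. All 10 genes are named; genes of the other lists are named where called with anti-MAFG in both lines or in MAFG cells only.

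Fragments at a summit and the local background were solved from the deposited fold, taken as (fragments × scale + 1) / (background + 1), and the Poisson p-value, with 1 scale per library and a match meaning agreement to 0.001 in −log10 p. All peaks tried were matched (100%) in every library, and 9.95% to 17.2% with the scale multiplied by 0.9. The formula is inferred and not stated by the authors. Library means per base are the lowest background so recovered, divided by the scale.

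Peak numbers were compared by two-sided exact permutation over 20 assignments (Python 3.11.15, numpy 2.4.6, pandas 2.3.3, scipy 1.17.1). Replicates of a group shared at most 6 identical peaks, so each counted as 1 sample. Equal replicate numbers did not pair the libraries (correlation of deviations -0.167 to 0.0105). The window count, the test and the recovery were tested on simulated data. Alternatives were the flank, a summit rule, a q limit, lists of equal length, 3 of 3 libraries, a left-out replicate and a replicate block, and, added after the data were seen, peaks within 1000 bp of a start and undivided fragments.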

Additional observations from a re-analysis of the deposited data

How the results depend on the processing

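The counts moved most when lists were cut to equal length. Genes of the 10 called were then 2 and 1 with anti-MAFG (GFP and MAFG cells; 5.30% of all genes in GFP cells) and 3 with anti-MITF in GFP cells (8.15% of all genes). Genes called in GFP cells and absent from MAFG cells were 1 (anti-MAFG) and 3 (anti-MITF), those called in MAFG cells and absent from GFP cells 2 (anti-MITF), and those not overlapping in peak number 0 and 3 (NFE2L1 and NFE2L2 with fewer peaks in MAFG cells, MAFF with more). The difference in peaks per library (MAFG minus GFP cells) reversed to 0.333 for NFE2L3 and 0.333 for BACH2 with anti-MAFG, and to 0.667 for MAFG and 1 for MAFF with anti-MITF; fewer GFP-cell peaks enter by construction.

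In MAFG cells, anti-MITF called 1 gene of the 10 with no flank (5.51% of all genes), with 5 kb, with −log10 q of at least 5 (5.48%), within 1000 bp of a start (2.67%) and with 3 of 3 libraries required (5.04%). Anti-MAFG there called 1 with the q limit, 1 with 3 of 3 libraries (3.41% of all genes) and 0 within 1000 bp of a start (0.858%). In GFP cells the start rule gave 3 genes with anti-MAFG (16.5% of all genes) and 24.8% of all genes with anti-MITF, and 3 of 3 libraries gave 26.5% with anti-MAFG. The cause of these changes was not tested.

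Leaving out each replicate gave 5 to 6 genes with anti-MAFG in GFP cells (27.5% to 36.6% of all genes) and 1 to 2 in MAFG cells (3.85% to 4.16%). With anti-MITF it gave 7 to 7 (41.5% to 41.8%) and 1 to 2 (6.06% to 6.36%). With the replicate number as a block, the numbers of genes whose lines do not overlap were 4 and 6, as without the block, with p = 0.25, the smallest 3 pairs allow in an exact sign-flip permutation test. Across all alternatives, 150 other values of counts or shares stayed within 1.5 times. Of the peak differences of single genes, 172 kept their direction, 4 reversed, 19 went to 0 (6 of them with lists of equal length and 6 within 1000 bp of a start) and 65 belonged to genes with a difference of 0 in the main analysis. A missing peak is limited by the calling: summits under 8 to 12 fragments were not called in MAFG cells. Above that, a call also depends on the local background and the scale of the library.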
